A study of Mus musculus with 6 samples.

Results

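Caveolae are flask-shaped pits of the plasma membrane, and the genes described here encode the proteins that build them. They are 8 genes, chosen by name with earlier results of these arrays in view: the caveolins Cav1, Cav2 and Cav3, the cavins Cavin1, Cavin2, Cavin3 and Cavin4, and the membrane ATPase gene Ehd2. All 8 were measured, each by 1 probe set that the platform annotation gives to that gene alone, out of 22180 genes with a named probe set on Affymetrix Mouse Gene 2.0 ST arrays. The study has 6 mouse samples, 1 array each and 1 sample per group, all labelled as female DBA/2J. Adult cardiomyocytes and neonatal cardiomyocytes are labelled as derived from mouse hearts. The other 4 samples come from induced pluripotent stem (iPS) cells, which are body cells returned to an embryonic-like state. Of these, 3 are day 7 cultures on the way to heart cells, grown for 5 days as floating embryoid bodies and then plated on gelatin. After plating they received both 1% DMSO and 100 ng/ml NRG-1, NRG-1 alone, or DMSO alone. NRG-1, or neuregulin, is a ligand of ERBB receptors, and the solvent DMSO is known to promote differentiation. The last sample is undifferentiated iPS cells, which the labels describe as kept with feeder cells, serum and LIF. The labels give no count of animals or iPS clones, no age beyond neonatal and adult, and no sample differentiated without DMSO or NRG-1 was analysed here.

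Caveolins insert into the inner leaflet of the membrane as a hairpin and bind cholesterol. Cavins are cytosolic coat proteins that assemble on caveolins, and EHD2 forms rings at the neck that hold a caveola at the surface. Caveolae are abundant in endothelial cells, adipocytes, fibroblasts, smooth muscle and striated muscle, where they buffer membrane tension, and CAV3 and CAVIN4 are the forms particular to muscle.

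Values are log2 expression after RMA, a method that corrects background, equalises the arrays and combines the probes of a gene. With 1 library per group there is no replicate error and no test was run, so each difference describes the libraries and not the conditions. A gene was counted as higher or lower when it was at least 2-fold apart, which is 1 on the log2 scale, and its brighter value reached the median of all values (5.20). The one measure of technical error was the spread between probe sets of the same gene, an SD of 0.20 to 0.60 depending on the 2 libraries. It came from genes with 2 probe sets, each reaching that median in at least 1 of the 2 libraries. Both probe sets are read on the same arrays, so this SD holds no variation between samples of a group. A difference larger than it may still lie within that variation. A level cannot be compared between genes, because each probe set has its own brightness.

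The labels were checked against marker lists. Of 12 cardiomyocyte markers, 1 was at least 2-fold higher in the adult library and 3 in the neonatal library than in iPS cells, whereas all 10 fibroblast markers were higher in both. Cardiomyocyte markers averaged 5.31 in the adult library and 6.65 in the neonatal library, with day 7 means of 6.73 to 7.04 and an iPS mean of 5.33. Undifferentiated iPS cells had a mean of 9.06 over 10 pluripotency markers, against 4.59 to 5.56 in the other libraries. Y-linked Eif2s3y stood at 8.15 in the adult library and 6.20 in the neonatal library, and at 3.32 or lower in the other 4, which goes against the label of these 2 heart-derived libraries as female, and the neonatal library also had Xist, the RNA of the inactive X, at 8.78, against 3.39 in the adult library. Results for the day 7 libraries against iPS cells use neither of them.

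Across the set, 6 of the 8 caveolae genes had their lowest value in undifferentiated iPS cells, Cav1, Cav2, Cavin1, Cavin2, Cavin3 and Ehd2, and 25.8% of all genes that reached the median had theirs there. The muscle forms Cav3 and Cavin4 were the exceptions, Cavin4 by a gap of 0.10 that is within the probe set SD of 0.60. With the libraries shifted to equal housekeeping medians the count was 7, Cavin4 included. That shift raised every gene of the other libraries against iPS cells. The share of all genes lowest in iPS cells after it was not counted. In the adult library 7 of 8 members were at least 2-fold higher than in iPS cells (background 13.1% of genes higher) and 0 were lower (14.1%). In the neonatal library 6 of 8 were higher (13.0%) and 0 lower (11.2%). The day 7 counts were 5 with DMSO and NRG-1 (13.0% higher, 13.1% lower), 3 with NRG-1 alone (11.3% higher, 14.5% lower) and 6 with DMSO alone (13.1% higher, 13.3% lower), again with 0 lower in each. These comparisons share the iPS library, and the members were chosen with these values known, so the counts describe the genes and are no support for them. When the libraries were shifted to equal medians of 8 housekeeping genes, the count with NRG-1 alone was 6, Cavin4 among them. With both agents the count was then also 6, and the adult, neonatal and DMSO alone counts did not change. The 8 genes were not all even. Gusb was at least 2-fold above iPS cells in the adult and neonatal libraries. Hprt was at least 2-fold below iPS cells in the neonatal library and in each culture. The same shift moved the background to 16.4% higher and 11.1% lower for the adult library, 17.9% and 7.55% for the neonatal library, 17.8% and 9.62% with both agents, 20.9% and 7.89% with NRG-1 alone, and 17.0% and 10.4% with DMSO alone. Markers of other cell types were also higher in the cultures than in iPS cells. Of 10 epithelial markers, 8 were higher in each culture (medians 3.19 to 3.51), as were 7 of 10 fibroblast markers, and of 8 endoderm markers 6 were higher with both agents, 7 with NRG-1 alone and 6 with DMSO alone (medians 3.09 to 3.63). Cardiomyocyte markers were higher for 9, 8 and 10 of 12 in the same order. Their part in the caveolae values was not tested.

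**Figure D1:**
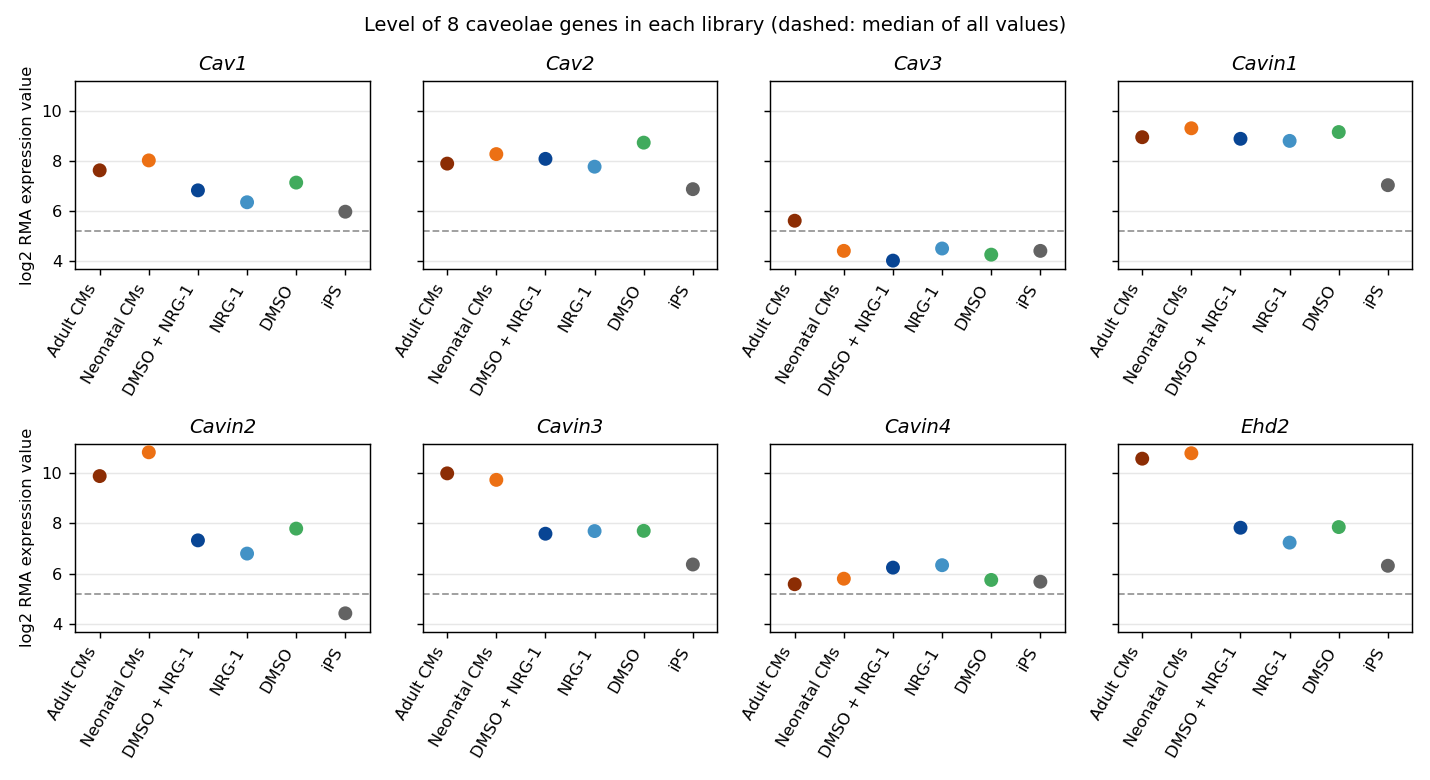
Log2 RMA value of each caveolae gene (panels) in the 6 libraries (points, 1 array each; CMs, cells labelled cardiomyocytes), with the median of all values, 5.20, as a dashed line. Cavin2, Cavin3 and Ehd2 form 3 steps, with heart-derived libraries above day 7 libraries and iPS cells lowest, whereas Cavin1 has 5 libraries close together above iPS cells and Cavin4 is nearly flat.

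Cav1 encodes the main caveolin of non-muscle cells, without which such cells form no caveolae. Its log2 level was 7.62 in the adult library, 8.01 in the neonatal library, 6.82 with DMSO and NRG-1, 6.34 with NRG-1 alone, 7.13 with DMSO alone and 5.97 in iPS cells. Both heart-derived libraries lay above all day 7 libraries, but the gap of 0.49 between adult and DMSO alone was within the probe set SD of 0.52. Against iPS cells Cav1 was higher by 1.65 in the adult library, by 2.05 in the neonatal library and by 1.16 with DMSO alone, while the differences of 0.85 with both agents and 0.38 with NRG-1 alone were under 2-fold.

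Cav2 encodes a caveolin that forms mixed oligomers with CAV1 and depends on it to reach the surface. It stood at 7.88 in the adult library, 8.26 in the neonatal library, 8.07 with DMSO and NRG-1, 7.76 with NRG-1 alone, 8.72 with DMSO alone and 6.87 in iPS cells. Here the culture with DMSO alone was highest and the heart-derived values fell among the day 7 values, with each gap between neighbours above iPS cells smaller than the probe set SD of those libraries. Libraries that were not neighbours differed by more, such as NRG-1 alone minus DMSO alone at -0.96, where the SD was 0.30. Cav2 was 2.03-fold above iPS cells in the adult library, only just past the 2-fold line, and 3.62-fold above with DMSO alone. With NRG-1 alone it was 1.86-fold above.

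Cav1 and Cav2 are adjacent among protein-coding genes of mouse assembly GRCm38.p6, with Tes next to Cav2 and Met next to Cav1. Tes and Met, neighbours picked for mention after their values were seen, had other orders of libraries. Met, the receptor of hepatocyte growth factor, was 6.47 and 7.91 in the adult and neonatal libraries, against 8.14 to 8.26 in the day 7 libraries and 5.67 in iPS cells. Tes, a focal adhesion gene, was 6.77 and 6.86 in the adult and neonatal libraries, 7.13 to 7.37 at day 7 and 5.58 in iPS cells. All 4 genes of this stretch were lowest in iPS cells, as were 25.8% of all genes that reached the median. Of the 4, Cav1 alone was higher in both heart-derived libraries than in every day 7 library, by a gap of 0.49 within the probe set SD of 0.52.

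Cav3, the muscle caveolin, reached the median of all values in 1 library. It was 5.61 in the adult library, 4.41 in the neonatal library, 4.02 with DMSO and NRG-1, 4.50 with NRG-1 alone, 4.25 with DMSO alone and 4.40 in iPS cells. The adult library stood apart, 1.20 above both the neonatal and the iPS library, and the other 5 lay between 4.02 and 4.50. Of 12 cardiomyocyte markers, 6 were at least 2-fold lower in adult than in neonatal cells and 0 were higher. Among 11 measured muscle membrane partners of CAV3, a list of sarcolemma and dystrophin complex genes, 5 were higher in the adult library than in iPS cells and 4 in the neonatal library. The shares of all genes were 13.1% and 13.0%. Of these partners, 0 differed 2-fold between the adult and neonatal libraries, beside 2.52% of all genes higher and 2.92% lower. The widest of them was Sgcb, a sarcoglycan, at 8.80 in the adult library, 8.53 in the neonatal library, 5.84 to 6.92 at day 7 and 7.16 in iPS cells. Slc8a1, the sodium-calcium exchanger, was 6.16 and 6.75 in the adult and neonatal libraries, 4.50 to 5.55 at day 7 and 4.30 in iPS cells. The membrane repair gene Trim72 was highest with DMSO and NRG-1 at 6.87 and lowest in iPS cells at 4.81.

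Cavin1 encodes the cavin required for caveolae in all tissues. Its values were 8.94 in the adult library, 9.29 in the neonatal library, 8.87 with DMSO and NRG-1, 8.79 with NRG-1 alone, 9.14 with DMSO alone and 7.03 in iPS cells. The 5 libraries other than iPS cells lay close together, each gap between neighbours being smaller than the probe set SD, and every one of them was above iPS cells by 1.77 to 2.27. NRG-1 alone minus DMSO alone, which were not neighbours, was -0.35, where the SD was 0.30. The day 7 and heart-derived values of Cavin1 overlapped, while those of Cavin2 and Cavin3 did not.

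Cavin2, which shapes the membrane of caveolae in a tissue-dependent way, had the widest span of the set, 6.42. It was 9.89 in the adult library, 10.84 in the neonatal library, 7.32 with DMSO and NRG-1, 6.80 with NRG-1 alone, 7.79 with DMSO alone and 4.42 in iPS cells. The 6 libraries fell in 3 separate ranges and every gap between neighbours exceeded its probe set SD. The differences from iPS cells were 5.47 for the adult library, 6.42 for the neonatal library, 2.91 with both agents, 2.38 with NRG-1 alone and 3.38 with DMSO alone. The iPS value lies under the median of all values, so these differences rest on a dim signal.

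Cavin3, a cavin linked to signalling and to movement of caveolae along microtubules, was 10.00 in the adult library, 9.74 in the neonatal library, 7.59 with DMSO and NRG-1, 7.70 with NRG-1 alone, 7.70 with DMSO alone and 6.36 in iPS cells. The day 7 values spanned less than their probe set SD and lay at least 2.03 below the lower heart-derived value. Cavin3 was higher than in iPS cells by 3.63 in the adult library and 3.37 in the neonatal library, and by 1.23 to 1.34 at day 7.

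Cavin4, the muscle cavin, spanned only 0.76. Its values were 5.58 in the adult library, 5.80 in the neonatal library, 6.24 with DMSO and NRG-1, 6.33 with NRG-1 alone, 5.75 with DMSO alone and 5.68 in iPS cells. The 2 libraries with NRG-1 were highest and the adult library lowest, with no gap between neighbours larger than its probe set SD. NRG-1 alone minus DMSO alone, which were not neighbours, was 0.59, where the SD was 0.30. No comparison reached 2-fold for this gene as the values were deposited, the nearest being 1.58-fold for NRG-1 alone against iPS cells. With the housekeeping shift that difference was 1.07 on the log2 scale, past 2-fold.

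Ehd2 was 10.58 in the adult library, 10.80 in the neonatal library, 7.83 with DMSO and NRG-1, 7.23 with NRG-1 alone, 7.85 with DMSO alone and 6.31 in iPS cells. As for Cavin2 and Cavin3, the heart-derived values lay above all the others, here by at least 2.73 on the log2 scale, or 6.62-fold. The other EHD genes, which act in endosome recycling, shared only part of this pattern. Ehd3 was highest in iPS cells at 7.87, against 6.78 in the adult library, 7.12 in the neonatal library and 5.54 to 6.21 at day 7. Its heart-derived values were thus also above all day 7 values. Ehd1 was between 7.38 and 8.30 in all 6 libraries. Ehd4 was 7.47 in the adult library, 7.98 in the neonatal library, 7.93 to 8.46 at day 7 and 7.39 in iPS cells. Like Ehd2, both Ehd1 and Ehd4 were lowest in iPS cells.

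**Figure D2:**
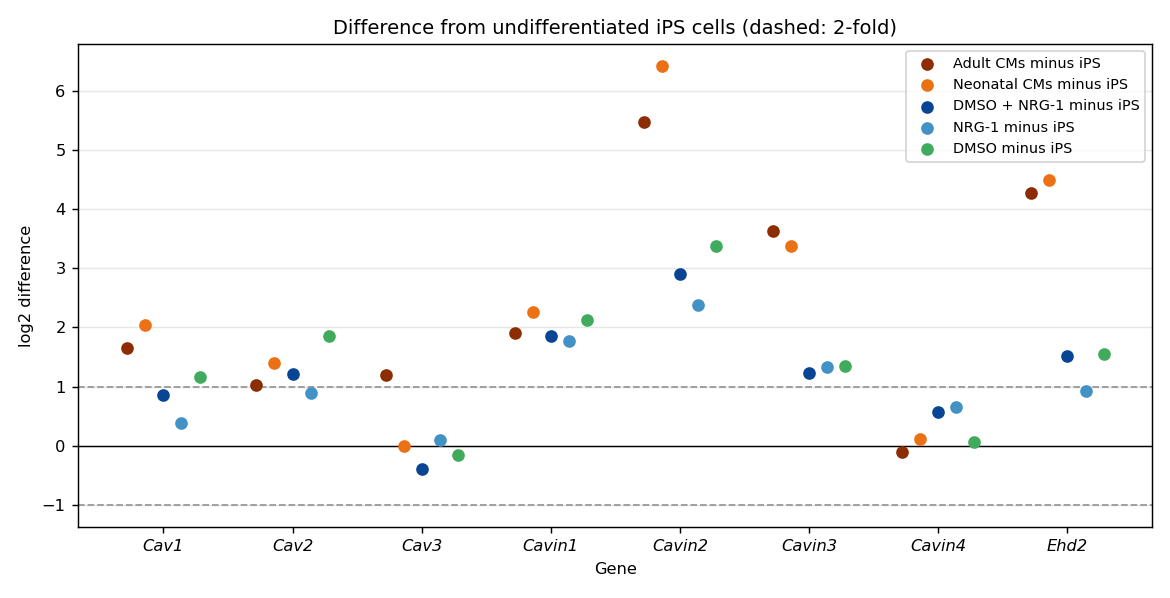
Log2 difference of each caveolae gene between 5 libraries and undifferentiated iPS cells (points, 1 library against 1), with dashed lines at 2-fold. Cavin2 reaches 6.42 in the neonatal library, the values for Cavin1 lie between 1.77 and 2.27 in all 5, and Cav3 passes 2-fold only in the adult library.

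Promoter windows are shown for the genes with the widest spans, Cavin2 and Ehd2, and for the adjacent pair Cav1 and Cav2, so that the shared and unshared letters can be seen beside their values. Each runs 5′ to 3′ on the gene's strand, from 250 bases before to 50 bases after its start, from RefSeq on GRCm38.p6, which held windows for 7 of the 8 genes. Capitals mark matches, on either strand, to the TEAD motif GGAATG, the KLF motif CACCC, the GC box motif GGGCGG, the TATA box motif TATAAA, the CArG box, named only, or the GATA motif AGATAA.
Cavin2, chr1:51288876-51289175, plus strand: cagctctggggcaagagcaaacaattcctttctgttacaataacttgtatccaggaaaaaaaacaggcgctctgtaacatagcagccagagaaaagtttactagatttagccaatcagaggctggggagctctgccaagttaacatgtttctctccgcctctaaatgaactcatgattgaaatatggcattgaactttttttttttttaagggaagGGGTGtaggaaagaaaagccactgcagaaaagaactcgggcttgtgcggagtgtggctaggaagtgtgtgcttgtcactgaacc
Ehd2, chr7:15967486-15967785, minus strand: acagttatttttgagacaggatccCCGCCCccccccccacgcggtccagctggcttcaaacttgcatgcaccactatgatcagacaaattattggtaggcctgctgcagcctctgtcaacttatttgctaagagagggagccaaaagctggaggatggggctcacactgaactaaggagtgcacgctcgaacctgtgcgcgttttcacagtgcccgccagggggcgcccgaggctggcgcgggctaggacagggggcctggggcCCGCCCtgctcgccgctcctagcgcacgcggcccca
Cav1, upstream start, chr6:17306085-17306384, plus strand: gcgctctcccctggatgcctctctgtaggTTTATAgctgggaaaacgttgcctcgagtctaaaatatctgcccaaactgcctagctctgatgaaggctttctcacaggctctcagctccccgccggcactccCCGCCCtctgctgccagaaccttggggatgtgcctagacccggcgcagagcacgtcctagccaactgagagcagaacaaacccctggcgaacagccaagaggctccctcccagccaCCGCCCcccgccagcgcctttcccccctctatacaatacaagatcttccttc
Cav2, chr6:17280935-17281234, plus strand: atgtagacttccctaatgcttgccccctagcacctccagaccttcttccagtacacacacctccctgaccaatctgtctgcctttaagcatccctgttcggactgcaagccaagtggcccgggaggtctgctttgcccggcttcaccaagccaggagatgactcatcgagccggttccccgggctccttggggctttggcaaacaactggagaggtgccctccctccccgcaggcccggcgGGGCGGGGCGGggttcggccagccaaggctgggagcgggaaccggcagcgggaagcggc
The GC box occurs in the windows of Cav1, Cav2 and Ehd2, and in that of Cavin1, so in 4 of 7 genes, and in 35.7% of 32851 RefSeq promoter windows. The pair of GC box matches of Cav2 overlap each other. Cavin2 has no match but 1 for CACCC, 34 bases before its start, a run that 4 of 7 genes and 57.5% of windows hold. Cav1 is among the 4 only through a downstream window that is not shown. The 7 genes have 9 windows, and a gene was counted if any of its windows matched. The shares are per window, so the 2 measures are not alike. GGAATG occurs in Cav3 and Cavin1 and in 14.7% of windows, TATAAA in Cav1 and Cavin4 and in 13.6%, and the E-box CANNTG, not capitalised, in 5 of 7 genes and 72.3%. The CArG box and AGATAA occur in 0 of 7 genes, and in 1.63% and 11.2% of windows. A match is a run of letters and not a bound site.

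The heart-derived libraries were then set against the day 7 cultures. Cav1, Cavin2, Cavin3 and Ehd2 were higher in both heart-derived libraries than in all 3 cultures, as were 29.0% of genes that reached the median. With a gap of at least 2-fold there were 3, Cavin2 (4.27-fold), Cavin3 (4.09-fold) and Ehd2 (6.62-fold), beside a background of 4.71%, and 0 members were lower by that gap (4.64%). Cav2, Cav3, Cavin1 and Cavin4 overlapped between the 2 sets of libraries.

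Marker lists of cell types went in different directions over the same libraries. Of 10 fibroblast markers, 6 were at least 2-fold higher in both heart-derived libraries than in every culture, and their mean was 10.52 in the adult library, 10.13 in the neonatal library, 8.08 with DMSO and NRG-1, 7.74 with NRG-1 alone, 8.21 with DMSO alone and 6.24 in iPS cells. Among 8 smooth muscle and pericyte markers, 4 were higher by that gap, with means of 8.79 and 8.74 in the adult and neonatal libraries, 7.09 to 7.34 at day 7 and 6.93 in iPS cells. Endothelial markers averaged 5.92 and 5.67 in the adult and neonatal libraries, 5.57 to 5.61 at day 7 and 5.57 in iPS cells, with 1 of 10, Emcn, past the gap. Of 6 measured adipocyte markers, 1 passed it, the fatty acid carrier Fabp4, and the adipocyte hormone gene Adipoq was between 3.95 and 4.15 in all libraries. All 10 epithelial markers were lower in both heart-derived libraries by at least that gap, as were 6 of 8 endoderm markers, with a list median of -2.81. Of 9 macrophage markers, 1 was higher by that gap, Lyz2, and 2 were lower, Cd68 and Csf1r. Cardiomyocyte markers had 0 of 12 higher by that gap and 2 lower, Myl3 and Ryr2. The part of these cell types in the levels of the caveolae genes was not tested, and in bulk RNA fewer cells of a type and less RNA per cell cannot be told apart.

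**Figure D3:**
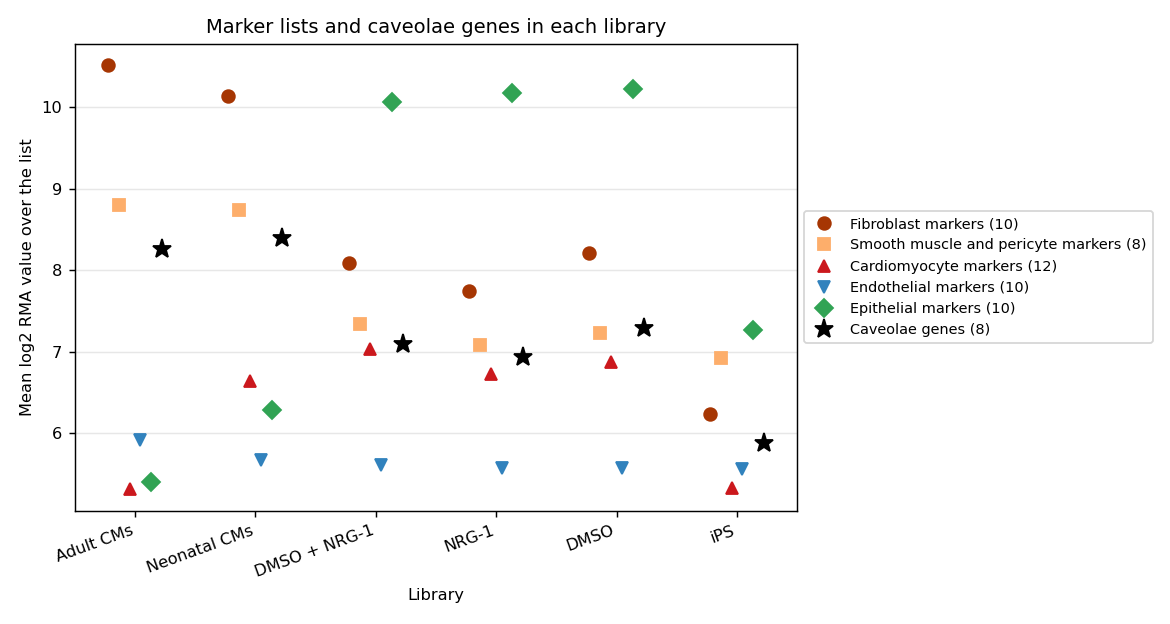
Mean log2 RMA value over each marker list (symbols, number of genes in the legend) and over the 8 caveolae genes (stars) in the 6 libraries. Fibroblast markers average 10.52 and 10.13 in the adult and neonatal libraries and 6.24 in iPS cells, while cardiomyocyte markers average 5.31 in the adult library and 6.73 to 7.04 at day 7.

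Between the adult and neonatal libraries, 1 of 8 members was at least 2-fold apart, Cav3, which was higher in the adult library (background 2.52% higher, 2.92% lower). It has no such call when the brighter value must reach the 75th percentile of all values. Cavin2 was the nearest below the line, at 9.89 in the adult library and 10.84 in the neonatal library, a difference of -0.95 or 1.93-fold. In all, 6 of 8 members were lower in the adult library by any amount, with a median of -0.29 where the median of all genes was 0.00. The share of all genes lower by any amount was not counted. That median of -0.29 is within the probe set SD of 0.34, as are Cavin4 and Ehd2 at -0.22 and Cavin3 at 0.26. With the housekeeping shift Cavin2 was called lower, beside 2.11% of genes higher and 3.72% lower. Between the same libraries 5 of 9 macrophage markers were at least 2-fold higher in the adult library (list median 1.21) and 5 of 6 mesothelial markers were lower (list median -1.60). Epithelial markers had 3 of 10 lower and fibroblast markers 2 of 10 higher. Their part in the caveolae values was not tested.

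Among the 3 cultures the question was how DMSO, NRG-1 and their combination differ at day 7. No member reached 2-fold between NRG-1 alone and DMSO alone (background 0.36% higher, 1.78% lower), between both agents and DMSO alone (0.0455% higher, 0.053% lower) or between both agents and NRG-1 alone (1.08% higher, 0.293% lower). With the housekeeping shift these were 1.26% and 0.861%, 0.0834% and 0.0455%, and 0.56% and 0.768%, again with no member called. Cavin2 and Cav2 came nearest. Cavin2 was 6.80 with NRG-1 alone and 7.79 with DMSO alone, a difference of -0.996 that is 1.99-fold, and Cav2 differed by -0.96, Cav1 by -0.78 and Ehd2 by -0.62, each by more than the probe set SD of 0.30. With the housekeeping shift Cavin2 and Cav2 differed by -0.77 and -0.73. Cavin1 and Cavin3 differed by -0.35 and -0.01, and the muscle forms Cavin4 and Cav3 by 0.59 and 0.24.

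Cav1, Cav2, Cavin1, Cavin2 and Ehd2 were lowest with NRG-1 alone among the cultures, 5 of 8 members, as were 43.6% of genes that reached the median. With both agents, 6 of 8 lay between the values of NRG-1 alone and DMSO alone, beside 42.7% of those genes. Both agents against DMSO alone gave differences of -0.65 for Cav2, -0.47 for Cavin2, -0.31 for Cav1, -0.27 for Cavin1 and 0.49 for Cavin4, each larger than the probe set SD of 0.20. Cavin3 differed by -0.11 and Ehd2 by -0.03. The difference of Cav3 was -0.24, but both its values lay under the median of all values, a range that the SD does not cover. Mesothelial markers moved alongside, 3 of 6 being at least 2-fold lower with NRG-1 alone than with DMSO alone, with list means of 8.33 with both agents, 7.63 with NRG-1 alone and 8.58 with DMSO alone. Fibroblast markers had 1 of 10 lower, Lum, in that comparison. Their part in the caveolae values was not tested.

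**Figure D4:**
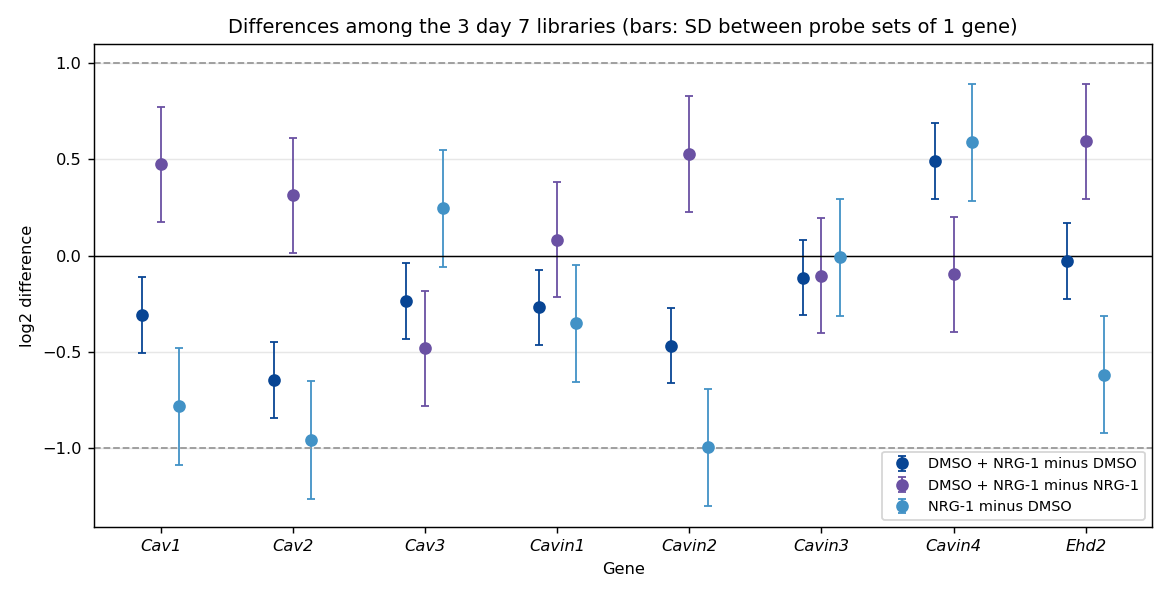
Log2 differences of the caveolae genes between pairs of day 7 libraries (points), with bars of 1 SD of the disagreement between probe sets of a gene in that pair and dashed lines at 2-fold. No point reaches 2-fold, Cavin2 and Cav2 come nearest with NRG-1 alone minus DMSO alone at -0.996 and -0.96, and Cavin4 lies above 0 at 0.59.

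Other proteins of the caveola neck and membrane were compared next, with counts near the shares over all genes. Of 11 genes of dynamin, pacsin and EHD type with Flna and Ror1, 2 were higher in the adult library than in iPS cells, Flna and Ror1, and 2 lower, Ehd3 and Pacsin1, beside 13.1% and 14.1% of all genes, with a list median of 0.15 where that of all genes was -0.02. Flna, the actin crosslinker that tethers caveolae, was 11.37 and 11.24 in the adult and neonatal libraries, 10.11 to 10.2 at day 7 and 9.43 in iPS cells. Ror1, a receptor reported to scaffold cavin and caveolin, was 7.20 and 7.06 in the adult and neonatal libraries and between 4.62 and 5.09 in the other 4. Pacsin2, whose F-BAR protein curves the caveola neck, was 10.36 with DMSO and NRG-1 and 10.35 with DMSO alone, against 9.29 in iPS cells.

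Rafts of other kinds had their own members. In the flotillin and raft list 4 of 13 genes were higher in the adult library than in iPS cells and 1 was lower, beside 13.1% and 14.1% of all genes. Thy1, a glycolipid-anchored surface protein, was 9.21 and 9.48 in the adult and neonatal libraries and between 5.46 and 6.31 elsewhere. Mal, a raft protein of epithelial apical transport, was 5.61 and 5.45 in the adult and neonatal libraries, against 11.35 with DMSO and NRG-1, 10.22 with NRG-1 alone and 11.65 with DMSO alone, and was 5.02 in iPS cells. Its relative Mal2 had 9.60 with both agents, 7.52 with NRG-1 alone and 10.06 with DMSO alone, against 5.47 in iPS cells. The flotillins Flot1 and Flot2 did not reach 2-fold against iPS cells in any library.

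Among 15 measured receptors and enzymes reported in caveolae, 7 were higher and 0 lower than in iPS cells in each of the 5 libraries. The 7 were not the same genes throughout, and the comparisons share the iPS library. Pdgfrb was among them only in the adult and neonatal libraries, and Insr and Src only at day 7. Of all genes, 11.3% to 13.1% were higher and 11.2% to 14.5% lower in these comparisons. The widest of the 15 were Pdgfrb, Egfr and Cd36. Pdgfrb, a growth factor receptor of mural cells and fibroblasts, was 10.44 and 10.03 in the adult and neonatal libraries and between 5.72 and 6.45 elsewhere. Egfr was highest with DMSO alone at 10.85 and was 6.22 in iPS cells. Of 13 measured cholesterol genes, 5 were lower in the adult library than in iPS cells and 1 higher, beside 14.1% and 13.1% of all genes. Dhcr7, a late enzyme of cholesterol synthesis, was 7.03 in the adult library against 8.84 in iPS cells. Lss, which closes the sterol rings, was 6.44 against 8.28, and the cholesterol exporter Abca1 9.06 against 7.55. Dhcr7 and Lss were also at least 2-fold lower than in iPS cells in the neonatal library and in each culture. Abca1 was at least 2-fold higher only in the adult and neonatal libraries. In the clathrin-coated pit list, the other main route of uptake, 1 of 13 was higher and 1 lower in the adult library, with a median of 0.11. The shares of all genes there were 13.1% and 14.1%. Of 12 YAP and TAZ genes, a pathway that responds to membrane and matrix tension, 6 were higher and 0 lower in the adult library, beside the same shares. Ankrd1 was 12.73 and 12.84 in the adult and neonatal libraries, 10.30 to 11.26 at day 7 and 7.53 in iPS cells.

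The members were not alike in pattern. With each gene centred on its own mean over the 6 libraries, the root mean square (RMS) difference was smallest for Cav2 and Cavin1 (0.34) and for Cavin3 and Ehd2 (0.48), and largest for Cavin2 and Cavin4 (2.18). Cav1 was 0.50 from Cavin1, 0.53 from Cav2 and 1.41 from Cavin2. Over the same 6 libraries the genes nearest to Cavin3 were Snx7, a sorting nexin (0.10), Bmper, a BMP-binding secreted protein (0.15), and Medag (0.18). Those nearest to Ehd2 were Tgfb3, a transforming growth factor beta (0.13), the RNA-binding protein gene Rbms3 (0.19) and Papss2, which makes the donor for sulfation (0.22). Nearest to Cavin2 were Spon2, a secreted matrix protein (0.44), Tm4sf1, a tetraspanin-like surface protein (0.47), and the endothelial phosphatase gene Ptprb (0.55). Cavin1 was nearest to Ets1, a transcription factor (0.07), Mfge8 (0.14) and the actin regulator Wdr1 (0.14), and Cav1 to Boc, a hedgehog co-receptor (0.09), Rtp4 (0.13) and Jph2, which joins muscle membranes (0.14). These were taken from 8554 candidate genes, and all share the same 6 libraries.

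**Figure D5:**
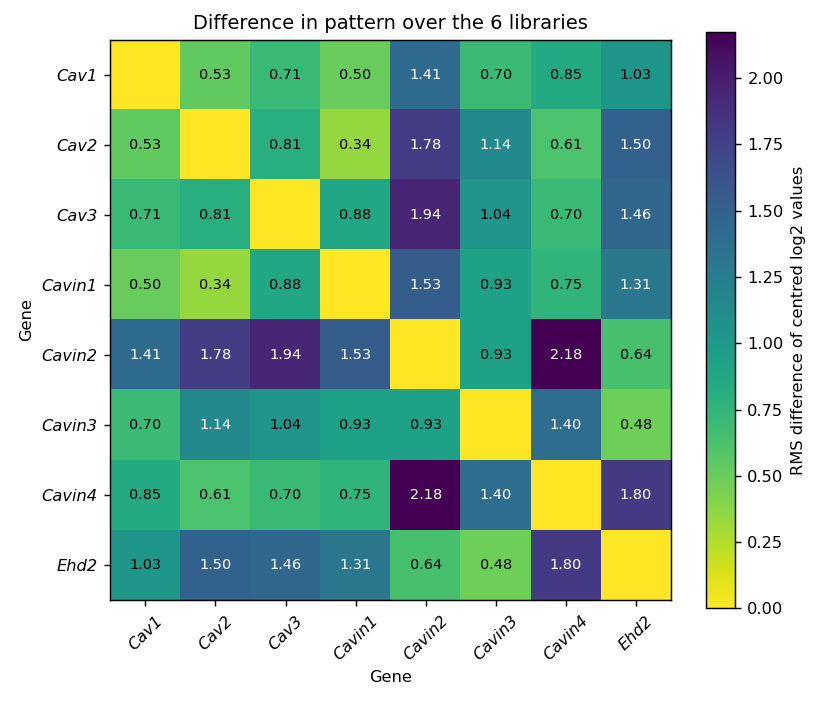
Root mean square difference between the centred log2 values of each pair of caveolae genes over the 6 libraries (cells, number printed; lighter is more alike). Cav2 and Cavin1 are most alike at 0.34, and Cavin2 is 2.18 from Cavin4.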

How the data were processed

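Total RNA from 6 samples, 300 ng each per the labels' protocols, was labelled as sense cDNA and hybridised to 1 array per sample. The deposited log2 table covers 41345 probe sets. Per the submitters' processing notes it comes from RMA, for which no version or program is given in these sources, and its scale was inferred from the range of values. Sorted values of any 2 arrays were within 0.285 of each other, so a shift of most genes would not show. The number of arrays limits the precision, and the table has no detection values.

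Names came from the platform annotation, where 23521 probe sets have 1 symbol, 1814 have several and 16010 are unnamed here. Several probe sets of a gene were averaged, giving 22180 genes. Symbols and promoter windows came from RefSeq tables of GRCm38.p6; no protein sequence was used. Groups were taken from the sample titles. The 10 comparisons are differences of log2 values, with no test, and for heart-derived against day 7 libraries the gap between the lower and higher sides. Members, gene lists and rules were chosen with earlier results of these data known. Every member is named, with the 3 genes nearest in pattern for members spanning at least 2, and for other lists the widest members. Others were chosen after their values were seen, among them the genes named beside a count, Ehd1, Ehd4, the flotillins, Adipoq and the neighbours of Cav1 and Cav2. Counting and likeness steps were tested on simulated data. Alternatives were no filter, a filter at the 75th percentile (6.93), the brightest probe set, cyclic loess (limma 3.58.1, R 4.3.3), a shift to equal medians of 8 housekeeping genes and, added after seeing the data, a 1.5-fold threshold and the counts of orders of libraries. Python 3.11.15, numpy 2.4.6 and pandas 2.3.3 were used.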

Additional observations from a re-analysis of the deposited data

Results flagged for a closer look

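Cavin4 differed from iPS cells in opposite directions at the 2 ages, by -0.10 in the adult library and by 0.12 in the neonatal library, a difference of -0.22 between them that was not tested. Each value is within its probe set SD, 0.60 for adult, 0.59 for neonatal and 0.34 for the difference, and with the housekeeping shift both differences from iPS cells were above 0, at 0.07 and 0.37.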

How the results depend on the processing

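Using no filter or cyclic loess kept every count of members at least 2-fold apart within 1.5 times its value, in all 10 comparisons. The brightest probe set could not change a member's values, because each member has 1 probe set. The shift to equal housekeeping medians put the median of all genes at 0.41 for NRG-1 alone minus iPS cells, and the count of members there was 6 in place of 3, beside 20.9% of all genes in place of 11.3%. For adult minus neonatal that shift gave 2 members in place of 1, Cavin2 now being lower, and a filter at the 75th percentile, which Cav3 at 5.61 does not reach, gave 0. The cause of the effect of the shift was not tested. The shift put the median of all genes at 0.15 to 0.41 in the comparisons with iPS cells and adds the same amount to every gene of a library. At 1.5-fold the counts were 6 for NRG-1 alone minus iPS cells (all genes 21.0% higher, 25.3% lower), 2 for adult minus neonatal (7.72%, 9.54%), 5 for NRG-1 alone minus DMSO alone, 4 of them lower (3.2%, 7.01%), and 1 each for both agents minus DMSO alone (0.727%, 0.765%) and minus NRG-1 alone (5.64%, 2.66%). No member's difference and no median over the members moved by more than the probe set SD under any normalization tried. The 4 counts of orders of libraries were within 1.5 times under all 5 alternatives. Of these, the brightest probe set and no filter could not change them, since every member already passed the filter. No paired analysis was possible because each group has 1 sample, and no replicate could be left out.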
